A study of Rattus norvegicus with 22 samples.

Results

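A set of 10 genes of spinal neuropeptide signalling were followed across spinal cord injury (SCI) and tamoxifen (TMX) in rats, comprising the peptide precursors Gal, Pdyn, Tac1, Npy, Sst, Penk, Cck, Nts and Grp, and the neuropeptide Y receptor Npy2r. They were chosen by name, with earlier results of these data known, and 10 of the 15037 genes with a symbol on the array carry one of these names, each with 1 transcript. RNA came from 1 spinal cord per array in 22 adult male Long-Evans rats, which made up 4 groups named Sham/TMX- (n = 5), Sham/TMX+ (n = 6), SCI/TMX- (n = 5) and SCI/TMX+ (n = 6). In both SCI groups the cord was exposed by laminectomy at the ninth thoracic level and struck by a 10 g rod dropped from 50 mm, whereas both sham groups had soft tissue surgery without laminectomy, so contusion and laminectomy cannot be told apart. TMX, a selective oestrogen receptor modulator, was given at 5 mg/kg to the TMX+ groups 30 min after surgery, and the TMX- groups received the vehicle of ethyl alcohol and corn oil. All 4 groups had ketamine and xylazine anaesthesia and tramadol, and tramadol acts on the opioid and monoamine systems. Tissue was taken at 24 h as a 20 mm length of cord centred on the lesion or the matching place. It was split sagittally before freezing, and whether RNA came from 1 segment or all of it is not stated. Every value is thus an average over all cell types of the tissue used.

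Neuropeptides are made as precursor proteins that are cut and modified inside dense core vesicles and released by sustained neuronal firing. In the spinal cord most of them belong to interneurons of the dorsal horn, where substance P (from Tac1) promotes the relay of pain and itch signals while enkephalin (Penk), dynorphin (Pdyn), somatostatin (Sst) and neuropeptide Y (Npy) restrain parts of it. Galanin (Gal) is well known as a peptide whose transcript increases in injured primary sensory neurons.

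After SCI without TMX, 7 of the 10 genes passed the test at an adjusted p under 0.05: Gal, Pdyn, Tac1, Npy and Npy2r rose, and Sst and Cck fell. With TMX, 7 of the 10 also passed in SCI: Gal, Pdyn, Tac1 and Npy rose, and Sst, Penk and Nts fell. Across all 23188 transcripts the shares called were 30.6% (12.8% higher, 17.8% lower) without TMX and 34.1% (14.3% higher, 19.7% lower) with it. The 2 comparisons share no arrays, but the fit takes the spread of each transcript from all groups together. Their tests are therefore not independent. In both comparisons 4 genes (Gal, Pdyn, Tac1 and Npy) were higher, against 10% of all transcripts, while Sst alone was lower in both, against 14.1%. TMX itself moved none of the 10 past its threshold, in sham or in injured rats. SCI/TMX- replicates 1 and 2 stood highest on the second principal component of all transcripts (8.45% of variance), at 23 and 41.7. SCI/TMX+ replicate 5 stood lowest, at -23.7. Without SCI/TMX- replicates 1 and 2, the same 7 genes passed after SCI without TMX. Their differences were 1.67 for Gal, 1 for Pdyn, 0.44 for Tac1, 0.46 for Npy, 0.52 for Npy2r, -0.56 for Sst and -0.27 for Cck. The median log2 fold change over the 10 genes was 0.15 without TMX and -0.07 with it, beside -0.01 and -0.02 over all transcripts, since rises and falls were mixed. Because the genes were chosen with results known, their counts describe these genes and are no independent evidence that they differ from others.

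The 5 genes that moved the same way in both SCI comparisons are shown by the 300 bases around their annotated transcription start (250 before, 50 after), from RefSeq on GRCr8, 5′ to 3′ on the gene's strand. Capitals mark the cyclic AMP response element, TGACGTCA, and its half-site, TGACG, read on both strands, because cyclic AMP and calcium signalling through this element is a textbook route to peptide gene transcription.
Gal, chr1:210084523-210084822, strand -: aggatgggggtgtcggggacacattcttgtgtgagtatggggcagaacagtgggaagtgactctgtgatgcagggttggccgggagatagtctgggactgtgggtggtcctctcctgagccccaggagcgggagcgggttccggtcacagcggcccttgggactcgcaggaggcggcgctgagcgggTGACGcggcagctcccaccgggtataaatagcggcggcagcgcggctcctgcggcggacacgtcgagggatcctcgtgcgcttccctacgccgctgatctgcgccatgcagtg
Pdyn, chr3:137366454-137366753, strand -: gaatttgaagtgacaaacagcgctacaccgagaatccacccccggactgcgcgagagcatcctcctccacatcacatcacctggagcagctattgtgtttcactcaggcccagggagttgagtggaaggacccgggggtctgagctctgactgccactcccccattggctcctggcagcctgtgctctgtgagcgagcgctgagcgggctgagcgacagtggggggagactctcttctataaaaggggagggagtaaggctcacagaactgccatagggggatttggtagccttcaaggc
Tac1, chr4:36645333-36645632, strand +: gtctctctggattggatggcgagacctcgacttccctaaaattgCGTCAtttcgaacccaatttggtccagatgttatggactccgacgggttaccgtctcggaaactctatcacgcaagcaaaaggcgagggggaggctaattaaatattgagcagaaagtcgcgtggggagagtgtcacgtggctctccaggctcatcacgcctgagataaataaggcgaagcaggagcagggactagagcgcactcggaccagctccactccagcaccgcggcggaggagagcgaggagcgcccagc
Npy, chr4:80211861-80212160, strand +: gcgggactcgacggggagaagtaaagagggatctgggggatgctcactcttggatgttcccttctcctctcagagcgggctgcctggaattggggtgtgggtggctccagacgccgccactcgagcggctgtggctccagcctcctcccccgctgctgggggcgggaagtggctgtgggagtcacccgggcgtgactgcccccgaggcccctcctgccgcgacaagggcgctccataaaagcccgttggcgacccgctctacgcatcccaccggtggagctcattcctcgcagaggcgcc
Sst, chr11:90461296-90461595, strand +: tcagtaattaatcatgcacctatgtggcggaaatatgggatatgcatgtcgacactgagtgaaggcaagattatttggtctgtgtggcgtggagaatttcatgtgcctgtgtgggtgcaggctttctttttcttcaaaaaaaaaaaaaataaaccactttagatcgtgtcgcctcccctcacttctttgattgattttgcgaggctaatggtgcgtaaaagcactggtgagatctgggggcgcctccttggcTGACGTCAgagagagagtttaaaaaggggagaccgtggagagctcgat
The full element stood in the Sst window, from base 3 to base 10 after the annotated start, and it holds an overlapping half-site on each strand. Gal had 1 half-site, at positions -63 to -59 from the start, and Tac1 had 1 on the opposite strand, at -206 to -202. Of 33469 rat promoter windows of this length, 1.83% held the full element and 21.2% the half-site, and of the 8 members with a window, 1 and 5 did. The AP-1 motif TGANTCA, which Fos and Jun proteins bind, was in 7.33% of all windows and in those of Nts and Npy2r, and in none of the 5 printed ones. The full oestrogen response element, GGTCA and TGACC with 3 bases between, was in 0.0269% of all windows and in none of the 8. These are matches of letters only, in windows placed by annotated starts that were not checked here. For Npy2r the bases after the annotated start begin with ATG, as a coding sequence does, so its window may not be a promoter.

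**Figure D1:**
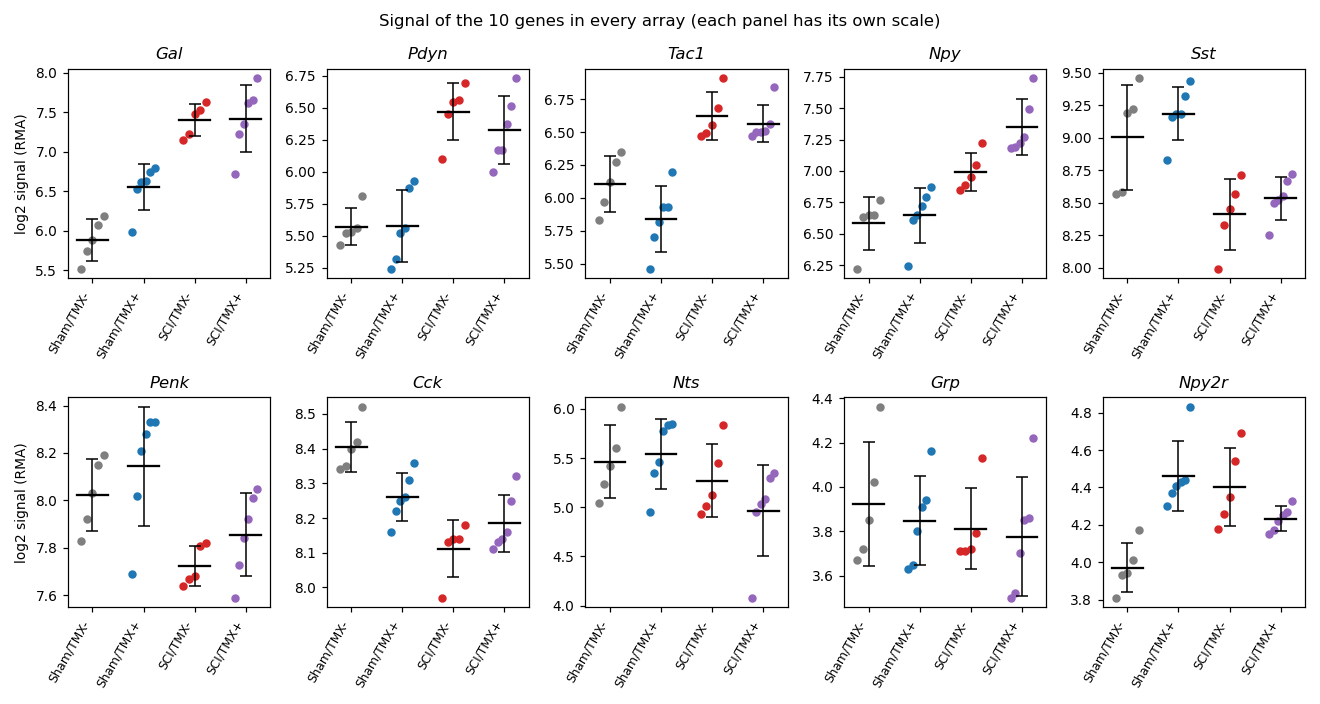
Log2 signal of each of the 10 genes (vertical axes) in each of the 22 arrays (points) by group, with the group mean and SD. Gal, Pdyn, Tac1 and Npy sat higher in both SCI groups than in the matching sham groups, Sst sat lower, and Npy2r was lowest in Sham/TMX-.

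Values are log2 signals after background correction and quantile normalization by the study's authors, so a step of 1 is a doubling of signal. They compare 1 gene between arrays and not one gene with another. Nts, Grp and Npy2r had a mean signal under the median transcript (5.46), with 47.7%, 27.2% and 33.1% of transcripts below them, whereas Sst, Cck and Penk stood above 94.6%, 90.9% and 88.3% of transcripts.

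Gal showed the largest change among the 10. In Sham/TMX- its 5 arrays read 5.52, 6.07, 5.88, 5.74 and 6.19, and in SCI/TMX- they read 7.23, 7.15, 7.48, 7.63 and 7.53. Every injured array lay above every sham array. The difference was 1.52 on the log2 scale (SE 0.18, 95% interval 1.16 to 1.89, adjusted p = 3.12e-07 by limma), a 2.88-fold higher signal, and Gal was the only one of the 10 to pass the study's own threshold for SCI, an adjusted p under 0.05 with a log2 change beyond 1, against 3.05% of all transcripts. With TMX, Sham/TMX+ ran from 5.99 through a median of 6.62 to 6.79, and SCI/TMX+ from 6.72 through 7.48 to 7.93. These groups touched at 1 injured rat, replicate 2 at 6.72. The rise was 0.87 (SE 0.16, 95% interval 0.53 to 1.2, adjusted p = 0.000139), or 1.82-fold, and none of the 10 passed the study's SCI threshold here, against 3.04% of all transcripts. Without SCI/TMX+ replicate 2, the Gal difference was 1.01 and passed it. The 4 group means thus ran from 5.88 ± 0.27 (SD, n = 5) in Sham/TMX- to 6.55 ± 0.29 (n = 6) in Sham/TMX+, then 7.4 ± 0.21 (n = 5) in SCI/TMX- and 7.42 ± 0.42 (n = 6) in SCI/TMX+, the last pair differing by 0.01 with an interval of -0.34 to 0.36.

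Pdyn encodes prodynorphin, the source of ligands of the kappa opioid receptor. Its arrays read 5.53, 5.56, 5.52, 5.43 and 5.81 in Sham/TMX- and 6.1, 6.54, 6.56, 6.69 and 6.45 in SCI/TMX-. With TMX the sham arrays ran from 5.24 (median 5.54) to 5.93 and the injured ones from 6 (median 6.27) to 6.73. Injured and sham arrays were apart in both comparisons. Pdyn rose by 0.9 without TMX (SE 0.14, adjusted p = 1.89e-05, 1.87-fold) and by 0.75 with it (SE 0.13, adjusted p = 4.73e-05, 1.68-fold).

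Tac1 encodes the precursor of substance P and neurokinin A. In Sham/TMX- it read 6.35, 5.83, 6.12, 5.97 and 6.27, and in SCI/TMX- 6.55, 6.91, 6.47, 6.68 and 6.49. Sham/TMX+ ran from 5.46 through 5.87 to 6.2, and SCI/TMX+ from 6.47 through 6.5 to 6.84. The injured arrays were again all above the sham arrays of the same treatment, by a narrow margin without TMX. Tac1 rose by 0.51 (SE 0.12, adjusted p = 0.00203) and, with TMX, by 0.72 (SE 0.11, adjusted p = 1.31e-05).

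Npy encodes neuropeptide Y, which marks a set of inhibitory dorsal horn neurons. Its 5 arrays in Sham/TMX- read 6.65, 6.63, 6.65, 6.22 and 6.77, and those in SCI/TMX- 6.89, 6.95, 6.85, 7.05 and 7.22. Sham/TMX+ lay between 6.24 and 6.87 with a median of 6.69, and SCI/TMX+ between 7.18 and 7.74 with a median of 7.24. Injured and sham arrays did not overlap in either comparison. The rise was 0.41 without TMX (SE 0.13, adjusted p = 0.0144) and 0.7 with it (SE 0.11, adjusted p = 2.34e-05). The smaller rise lost its call without 1 low sham array, Sham/TMX- replicate 4 at 6.22, where it was 0.32 with an adjusted p of 0.0619.

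Sst, the precursor of somatostatin, moved the other way. Sham/TMX- read 9.22, 8.58, 9.19, 8.57 and 9.46, and SCI/TMX- 7.99, 8.71, 8.57, 8.45 and 8.33, with replicates 2 and 4 of the sham group inside the injured range. In Sham/TMX+ it ran from 8.83 through 9.18 to 9.44 and in SCI/TMX+ from 8.25 through 8.54 to 8.72, with no overlap. Sst fell by 0.6 on the log2 scale without TMX (SE 0.16, adjusted p = 0.00445) and by 0.65 with TMX (SE 0.14, adjusted p = 0.000772). In bulk tissue, fewer cells that make a transcript and less transcript per cell cannot be told apart.

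Cck and Penk differed by small amounts. Cck, the cholecystokinin precursor, read 8.52, 8.42, 8.4, 8.34 and 8.35 in Sham/TMX- and 7.97, 8.18, 8.13, 8.14 and 8.14 in SCI/TMX-, without overlap, and fell by 0.3 (SE 0.07, adjusted p = 0.00255). With TMX, the difference was -0.07 (95% interval -0.21 to 0.06, adjusted p = 0.436), and the difference between both SCI effects was 0.22 with an interval of 0.02 to 0.42 and an adjusted p of 0.697. Penk, the source of the enkephalins, read 8.19, 7.92, 8.03, 7.83 and 8.15 in Sham/TMX- and 7.64, 7.82, 7.81, 7.67 and 7.68 in SCI/TMX-. The lowest sham array, at 7.83, lay just above the highest injured array, at 7.82. Its difference of -0.3 (SE 0.11) had an adjusted p of 0.0515 without TMX, and with TMX it fell by 0.29 (SE 0.1, adjusted p = 0.0345), so that similar differences lay on either side of the threshold. The call with TMX was lost without SCI/TMX+ replicate 1, 3 or 4 (adjusted p = 0.0981, 0.0545 and 0.0757) or Sham/TMX+ replicate 1, 2, 3 or 5 (adjusted p = 0.0848, 0.0869, 0.0776 and 0.0653). Without TMX, Penk passed when Sham/TMX- replicate 4, SCI/TMX+ replicate 1 or Sham/TMX+ replicate 4 was left out (adjusted p = 0.034, 0.044 and 0.0223).

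Nts and Grp, the neurotensin and gastrin-releasing peptide precursors, gave low signals. Nts was 5.46 ± 0.37 (SD, n = 5) in Sham/TMX- and 5.27 ± 0.37 (n = 5) in SCI/TMX-, a difference of -0.19 with an interval of -0.64 to 0.26. With TMX it fell by 0.58 (SE 0.2, adjusted p = 0.0276), a call that was lost without SCI/TMX+ replicate 1, the lowest array at 4.08 (-0.4, adjusted p = 0.0943), and also without Sham/TMX+ replicate 3, 5 or 6 (adjusted p = 0.0662, 0.0618 and 0.0673). Grp, a peptide tied to itch, lay between 3.5 and 4.36 in all 22 arrays, and its differences were -0.11 (interval -0.4 to 0.18) and -0.07 (interval -0.34 to 0.19).

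Injured and sham arrays did not overlap for 7 of the 10 genes without TMX and for 4 of the 10 with TMX, against 21% and 20.9% of all transcripts.

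**Figure D2:**
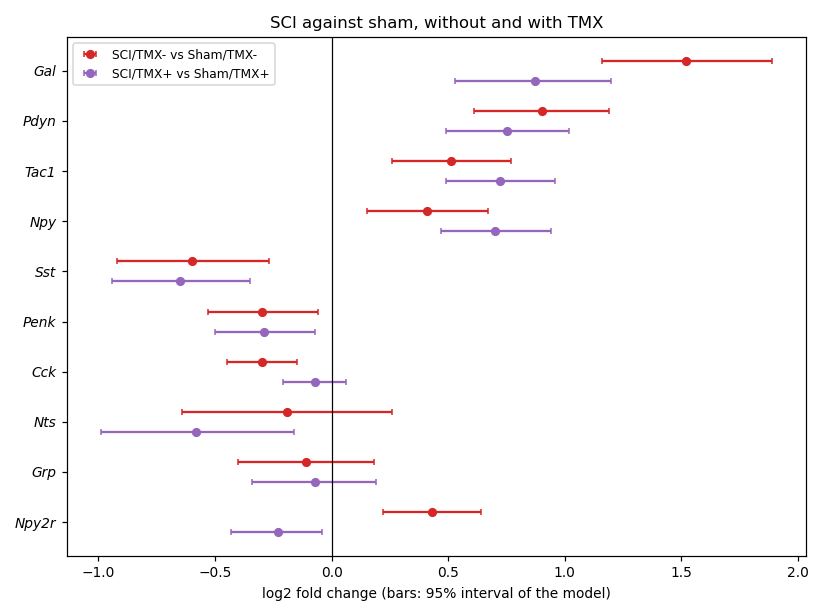
Log2 fold change of SCI against sham (horizontal axis) for each gene, without TMX and with TMX, with the 95% interval of the limma model as bars. Both intervals lie above 0 for Gal, Pdyn, Tac1 and Npy and below 0 for Sst, whereas those of Npy2r lie on opposite sides of 0.

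Npy2r encodes the Y2 receptor, which in rodents sits on terminals of sensory neurons and on neurons that it inhibits. Its arrays read 3.94, 4.17, 3.81, 4.01 and 3.93 in Sham/TMX- and 4.35, 4.18, 4.69, 4.54 and 4.26 in SCI/TMX-, and it rose by 0.43 (SE 0.1, adjusted p = 0.00195). In Sham/TMX+ it ran from 4.3 through 4.42 to 4.83 and in SCI/TMX+ from 4.15 through 4.24 to 4.33. There the difference was -0.23 (SE 0.09, 95% interval -0.43 to -0.04, adjusted p = 0.0574), which did not pass. It passed without SCI/TMX- replicate 2 or 3 or Sham/TMX+ replicate 2 (adjusted p = 0.0448, 0.0423 and 0.0419). Sham/TMX- was thus the low group, at 3.97 ± 0.13 (SD, n = 5), and the other group means were 4.23 ± 0.07, 4.4 ± 0.21 and 4.47 ± 0.19. The difference between both SCI effects was -0.67 (SE 0.14, 95% interval -0.95 to -0.38, adjusted p = 0.314 by limma), which ranked 5 of 23188 by p. All of these signals are in the low part of the array's range.

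In sham rats, TMX was compared with vehicle at the study's threshold, an unadjusted p under 0.05 with a log2 change beyond 0.7, which 0.0302% of transcripts passed and 0 of the 10 genes did. At an unadjusted p under 0.05 alone, 4 of the 10 passed, against 5.46% of all transcripts, and by adjusted p none did, against 0.0129%. Npy2r was 0.49 higher with TMX (SE 0.1, adjusted p = 0.148 by limma), rank 6 of all by p, and the arrays did not overlap, as held for 1 of the 10 genes and 1.07% of transcripts. An exact permutation test gave p = 0.00216, the smallest that 5 against 6 arrays allow. So small a p follows from the lack of overlap and is no separate evidence. Gal differed by 0.67 (SE 0.17, adjusted p = 0.574 by limma, exact permutation p = 0.00866), just short of 0.7, with 1 Sham/TMX+ array, replicate 5 at 5.99, inside the vehicle range of 5.52 to 6.19. Without that array the difference was 0.78, and without Sham/TMX- replicate 2 or 5 it was 0.72 or 0.75, each past the threshold. Tac1 differed by -0.27 (adjusted p = 0.87 by limma, exact permutation p = 0.0887) and Cck by -0.15 (adjusted p = 0.898, exact permutation p = 0.00866).

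In injured rats, 0 of the 10 genes passed the TMX threshold, against 0.129% of transcripts, 0 passed by adjusted p, against 0.0216%, and no gene had groups apart, against 0.785%. Npy was the 1 gene of 10 with an unadjusted p under 0.05, against 10.4% of transcripts: it was 0.36 higher in SCI/TMX+ than in SCI/TMX- (SE 0.12, adjusted p = 0.268 by limma, exact permutation p = 0.0152). Among the 10 genes, Penk, Pdyn and Tac1 are the opioid and tachykinin precursors. Their 95% intervals for TMX against vehicle in injured rats were -0.1 to 0.36, -0.43 to 0.13 and -0.3 to 0.18. The interaction of SCI and TMX gave 0 of the 10 genes at an adjusted p under 0.05, as for all transcripts (0%), and 3 of 10 at an unadjusted p under 0.05 (Npy2r, Gal and Cck), against 6.84%. For Gal it was -0.66 (SE 0.24, 95% interval -1.16 to -0.16, adjusted p = 0.628 by limma). The TMX comparisons share arrays with the SCI comparisons above, so the raised Sham/TMX+ values of Gal enter both.

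**Figure D3:**
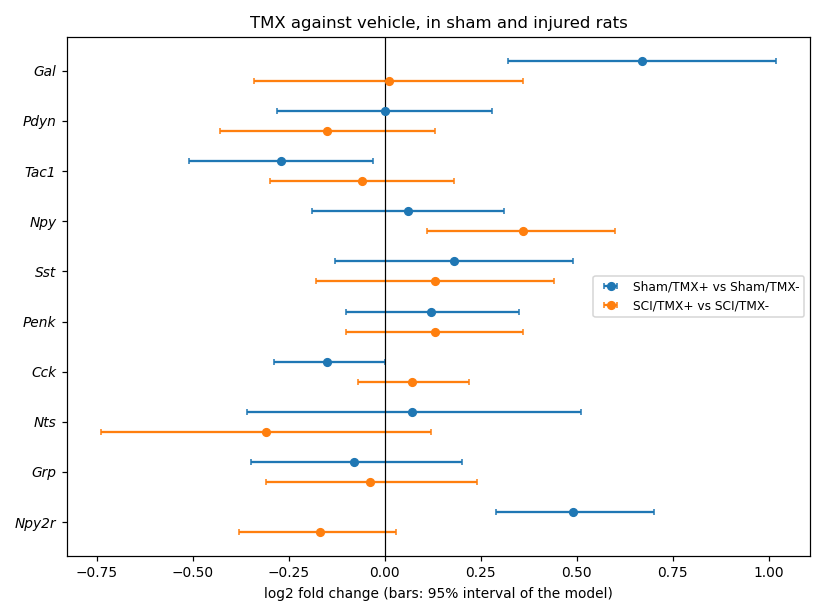
Log2 fold change of TMX against vehicle (horizontal axis) for each gene in sham and in injured rats, with the 95% interval of the limma model as bars. Gal and Npy2r lie to the right of 0 in sham rats (0.67 and 0.49) but not in injured rats (0.01 and -0.17), and Npy lies to the right in injured rats (0.36).

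Of 23 listed receptors of the 9 peptides, Npy2r not among them, 22 were measured. Without TMX, 9 fell after SCI, 0 rose and the rest did not pass, with a median log2 fold change of -0.27 beside -0.01 for all transcripts. With TMX, 10 fell and 0 rose, with a median of -0.32 beside -0.02. Of all transcripts, 17.8% and 19.7% fell in these comparisons and 12.8% and 14.3% rose. Oprm1, the mu opioid receptor, fell by 0.91 (SE 0.12, adjusted p = 1.14e-06) and by 0.85 with TMX, with sham means of 6.34 and 6.45 and SCI means of 5.43 and 5.6. Oprk1, the kappa receptor for dynorphin, fell by 0.53 and 0.37. The somatostatin receptors Sstr1 (fell by 0.78 and 0.79) and Sstr2 (fell by 0.53 and 0.64), the neurotensin receptor Ntsr2 (fell by 0.83 and 0.59) and the neurotensin-binding sorting receptor Sort1 (fell by 0.62 and 0.59) passed in both comparisons. So did the receptor of gastrin-releasing peptide, Grpr, which fell by 0.93 and 0.75, and the neurokinin B receptor Tacr3, which fell by 0.39 and 0.73. Both gave low signals, under the median transcript (5.46). Grpr had sham means of 3.61 and 3.9 and SCI means of 2.68 and 3.15, and Tacr3 had 4.06 and 4.37, and 3.67 and 3.64. Cckbr passed without TMX (fell by 0.67, adjusted p = 0.00214) and was at -0.35 with TMX. Galr1 and Npy5r passed with TMX, where they fell by 0.48 and 0.42. Npy5r was also low, with means of 4.03 in Sham/TMX+ and 3.61 in SCI/TMX+.

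Of 14 measured genes that cut, amidate and pack peptides, 8 fell and 1 rose without TMX, and 8 fell and 2 rose with TMX (median -0.31 in both), against the same shares of all transcripts. The carboxypeptidase Cpe (-0.03 and -0.06) and the granin Scg2 (0.02 and -0.06) did not pass in either comparison, and Pam, the amidating enzyme, fell by 0.29 without TMX but was at -0.12 with it (adjusted p = 0.211). Pcsk2, a convertase that cuts peptide precursors, fell by 0.76 and 0.49, and Cadps, which primes dense core vesicles for release, fell by 0.72 and 0.52. The vesicle membrane protein Ptprn2 fell by 0.65 and 0.51 and the granin Chga by 0.56 and 0.39. Pcsk1n, a convertase inhibitor, fell by 0.65 without TMX. Vgf, itself a secreted precursor that is induced by neuronal activity, went against the list and rose by 0.79 (adjusted p = 0.00308) and 1.69 (adjusted p = 5.83e-08).

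**Figure D4:**
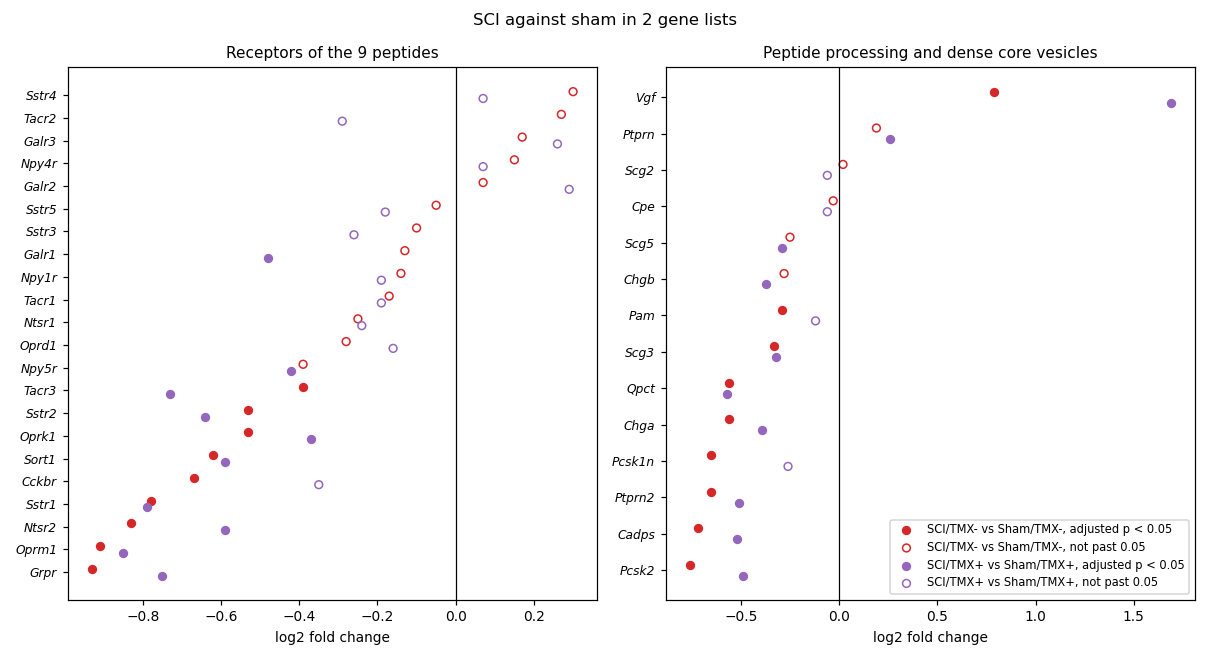
Log2 fold change of SCI against sham for each measured gene of 2 lists, the receptors of the 9 peptides and the genes of peptide processing and dense core vesicles, without and with TMX. Most points lie left of 0, Oprm1 and Grpr among the lowest receptors and Vgf the highest of the processing genes.

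Among 25 of 27 other neuropeptide precursors that were measured, 4 rose and 1 fell without TMX, and 6 rose and 3 fell with TMX. These counts were read against 12.8% higher and 17.8% lower over all transcripts without TMX, and 14.3% and 19.7% with it, and the rises without TMX were near that background. Trh, the thyrotropin-releasing hormone precursor, rose by 1.87 (SE 0.23, adjusted p = 5.98e-07) and 2.06 (SE 0.21, adjusted p = 2.24e-08), from sham means of 3.19 and 3.1. Adm, the adrenomedullin precursor, which is also made by vessels and leukocytes, rose by 0.94 and 1.68. Crh, corticotropin-releasing hormone, rose by 0.79 and 0.71, Adcyap1, the precursor of PACAP, rose by 0.63 and 0.49, and Nppc, the C-type natriuretic peptide precursor, fell by 0.28 and 0.52. Of 11 measured peptidases that degrade peptides, 3 rose and 3 fell without TMX, and 3 rose and 4 fell with TMX, against the same background. Mme, or neprilysin, which cleaves enkephalins and substance P, fell by 0.67 and 0.8, while aminopeptidase N, Anpep, rose by 1.43 and 1.22 and Ece1, an enzyme that also cuts peptides inside cells, rose by 1.35 and 1.3. Of the 14 genes of activity and injury response transcription, 10 rose and 0 fell in each comparison, against the same background. Fos rose by 1.9 and 2.04, Fosl1 by 1.91 and 2.55, Junb by 1.87 and 2.11, Jun by 1.53 and 1.43, and Atf3 by 1.1 and 1.45. Arc (-0.08 and -0.09), Npas4 (-0.1 and 0.09), Nr4a1 (-0.27 and -0.02) and Nr4a2 (-0.15 and 0.17) passed in neither comparison.

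Markers of several cell types also fell after SCI. Sst fell in both comparisons, as did most receptor and processing genes that passed, whereas Cck fell without TMX and was at -0.07 with it. Of all transcripts, 17.8% fell and 12.8% rose without TMX, and 19.7% fell and 14.3% rose with it. Of 14 pan-neuronal markers, 12 fell without TMX and 13 with TMX, and their mean level ranged from 10.06 to 10.18 in Sham/TMX-, 10.06 to 10.16 in Sham/TMX+, 9.51 to 9.72 in SCI/TMX- and 9.65 to 9.81 in SCI/TMX+. Of 7 markers of inhibitory interneurons, 5 fell in each comparison, and their mean level ranged over 6.65 to 6.88, 6.6 to 6.93, 6.12 to 6.44 and 6.38 to 6.64 in the same order. Their part in the results was not tested. Gal, Pdyn, Tac1 and Npy rose while these markers fell. Of 6 astrocyte markers, 4 fell in each comparison, and their median level went from 9.75 in Sham/TMX- to 9.3 in SCI/TMX- and from 9.84 in Sham/TMX+ to 9.34 in SCI/TMX+. Of 5 measured oligodendrocyte markers, 3 fell without TMX and 4 with it, with median levels of 11.34 and 10.99, and 11.5 and 11.14. Of 5 microglial markers, 3 fell and 1 rose in each comparison. Of 4 measured markers of thoracic cord position, 2 fell without TMX and 3 with it, and their median level was 7.35 in both sham groups, 6.89 in SCI/TMX- and 6.97 in SCI/TMX+. Red blood cell markers rose, 4 of 4 without TMX and 3 of 4 with it, from median levels of 6.12 and 5.79 in sham to 8.08 and 8.32 after SCI. All 5 macrophage and monocyte markers rose in each comparison, from 5.65 to 5.97 and 5.61 to 5.93 in the sham groups to 7.25 to 8.36 and 7.4 to 7.9 in the SCI groups, and the part of these lists was not tested either. Of 6 measured markers of dorsal root ganglion neurons, the cell bodies of the sensory neurons outside the cord, 1 rose in each comparison. These were different genes, Trpv1 without TMX (group means 2.87 and 3.33) and Mrgprd with TMX (4.6 and 5.12). The mean level of the 6 markers lay between 3.94 and 4.47 in all arrays. Defining transcripts of nervous tissue were measured in every group: group means ran from 11.46 to 12.02 for the neuronal gene Snap25, from 12.34 to 12.47 for the myelin gene Mbp and from 11.28 to 11.5 for the astrocyte gene Gfap. Hoxc8, a gene of thoracic position, was at 8.29 in both sham groups and fell to 7.87 in SCI/TMX- and 7.95 in SCI/TMX+ (adjusted p = 0.000917 and 0.00198 by limma).

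Within groups, some of the peptide genes varied together from rat to rat and others did not. After each group's mean was subtracted, 11 of the 45 pairs of genes had a Pearson r over 0.5 across the 22 arrays and none was under -0.5. These values come from the same arrays, share dissection and array-wide effects, and are a description. Sst and Penk were the closest pair at 0.74, with 0.75 within sham arrays and 0.72 within SCI arrays. Tac1 and Sst followed at 0.68 (0.79 within sham and 0.47 within SCI arrays). Penk was at 0.66 with Npy (0.88 and 0.31) and at 0.66 with Nts (0.65 and 0.72). Pdyn with Grp was at 0.65 (0.56 and 0.73), and Tac1 with Penk at 0.6 (0.78 and 0.19). Gal stood apart, with a highest r of 0.33, shared with Npy2r. The same deviations of Sst, Tac1 and Penk correlated at 0.68, 0.61 and 0.59 with the mean of the 7 inhibitory interneuron markers, and those of Gal at -0.21. Grp, Nts and Npy correlated with it at 0.56, 0.53 and 0.45. With the mean of the 4 measured excitatory interneuron markers, Sst, Tac1 and Penk correlated at 0.54, 0.25 and 0.38, Npy at 0.59 and Gal at -0.09. With the mean of the 4 thoracic position markers, Sst, Penk and Tac1 correlated at 0.71, 0.62 and 0.44, and with that of the 14 pan-neuronal markers at 0.11, 0.31 and 0.03. The part of cord position in these values was not tested. Among all named genes, Nrgn, a neuronal calmodulin-binding protein, was closest to both Sst (0.87) and Penk (0.84), and Sst was next closest to the peptide precursors Tac3 (0.84) and Pnoc (0.83). For Gal the closest were Pdlim1 (0.74), Kir3dl1 (0.71) and Rsad2 (0.7).

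**Figure D5:**
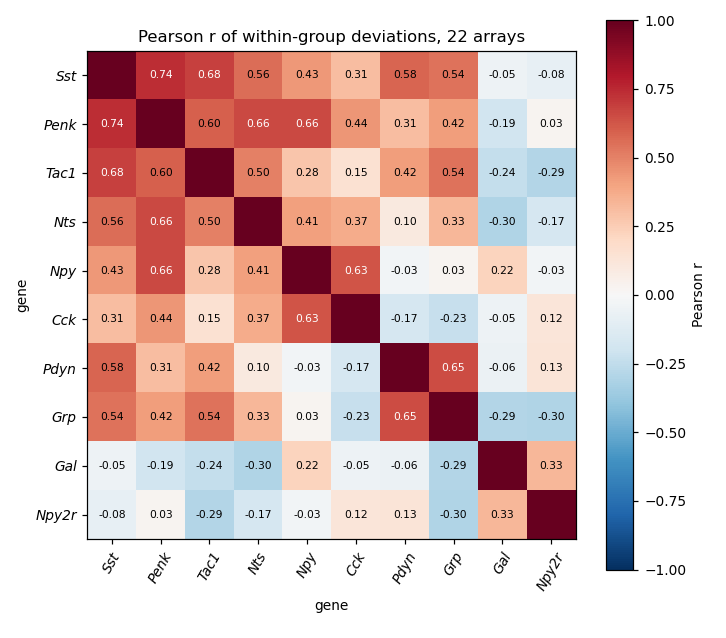
Pearson r of deviations from the group mean for each pair of the 10 genes, across 22 arrays (colour and number in each cell). Sst, Penk, Tac1 and Nts form a block of values from 0.5 to 0.74, whereas Gal and Npy2r have no value over 0.33 with any gene.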

How the data were processed

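Total RNA with an RNA integrity number of at least 7 was hybridized to Clariom S rat arrays, 1 per rat. Of 24 rats randomized, the study dropped 2 for RNA quality. The values in the table deposited by the authors are on the log2 scale. RMA in oligo 1.56 had corrected the background, equalized the array distributions by quantiles and combined probes into transcripts. The genome build behind the array is not given in the sources used here. The table holds no detection call, and array medians lay between 5.41 and 5.47.

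Transcripts were named by the platform annotation, 15049 of 23188 having 1 symbol. Where a symbol had more than 1 transcript, the one with the highest mean was used. From the deposited log2 values, group means were fitted for all transcripts with limma 3.58.1 (R 4.3.3; 18 residual degrees of freedom), with two-sided moderated tests and Benjamini-Hochberg adjustment over 23188 transcripts. The methods' thresholds are an adjusted p under 0.05 with a log2 change beyond 1 for SCI, and an unadjusted p under 0.05 with 0.7 for TMX. The study's own fit used limma 3.48.3. Exact permutation tests of single genes were two-sided. The fit was tested on simulated data with known changes.

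The members and gene lists were chosen with earlier results of these data known. Named genes are all members, up to 5 genes of each list with the smallest p after SCI without TMX, receptors past the test, markers, and the 3 genes closest to each member. In the text the nearest genes are given for Sst, Penk and Gal. The marker lists covered neurons of 5 kinds, glia, blood cells, endothelium, Schwann cells and cord position. Besides the lists described with the results, 2 of 4 excitatory interneuron and 3 of 6 motor and autonomic neuron markers fell after SCI without TMX, and 1 of 4 Schwann cell, 3 of 5 neutrophil and 2 of 5 endothelial markers rose. Of all transcripts, 17.8% fell and 12.8% rose in that comparison.

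Alternatives were eBayes with trend and robust settings, a filter that keeps the 11594 transcripts of higher signal, subtraction of array medians, a repeated quantile normalization, array weights, a block for the replicate number, a fit of the compared groups alone, a single transcript for each gene (15037), omission of each array in turn, and omission of SCI/TMX- replicates 1 and 2 together. The labels number the rats within groups. Separate animals make the replicates, and the number of arrays limits the precision.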

Additional observations from a re-analysis of the deposited data

Results flagged for a closer look

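Of 40 group values of the 10 genes (each gene in each group), 7 held 1 array whose distance to the nearest other array was a large share of the range of its group. Chance alone would mark about 1 in 20 groups. In Tac1, SCI/TMX+ replicate 6 stood at 6.84 with its nearest neighbour at 6.56, and in Npy, Sham/TMX- replicate 4 stood at 6.22 below 6.63. In Gal, Sham/TMX+ replicate 5 was at 5.99 below 6.53, and in Npy2r, Sham/TMX+ replicate 3 was at 4.83 above 4.44. In Nts, SCI/TMX+ replicate 1 was at 4.08 below 4.95. The last pair belongs to SCI/TMX-: Cck in replicate 1 was at 7.97 below 8.13, and Grp in replicate 2 was at 4.13 above 3.79. These are the 2 arrays that stood highest on the second principal component of all transcripts (8.45% of variance), where SCI/TMX+ replicate 5 stood lowest.

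The Npy2r values after SCI lay on opposite sides of their sham means without and with TMX, at 0.43 and -0.23, and the second of these did not pass (adjusted p = 0.0574 by limma). Every SCI/TMX- array lay above the Sham/TMX- mean and every SCI/TMX+ array lay below the Sham/TMX+ mean, and the difference between the effects was -0.67. Read the other way, every Sham/TMX+ array lay above the vehicle mean in sham rats and every SCI/TMX+ array lay below the vehicle mean in injured rats, which is the same interaction of -0.67, with an adjusted p of 0.314 by limma.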

How the results depend on the processing

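Across 1565 values of the 10 genes under the alternatives, 1532 stayed on their side of the threshold and 33 crossed it. The values include exact permutation tests of the 10 genes, judged by unadjusted p. Where a value passed in the main fit or in the alternative, 0 changed direction. Small differences that passed in neither could change sign. The Gal difference between the injured groups, 0.01, became -0.13 without SCI/TMX- replicates 1 and 2. The count of members called after SCI was 7 without TMX (7 to 8 over the alternatives) and 7 with it (5 to 8). The count past the methods' SCI threshold without TMX was 1 and became 2, Gal and Pdyn, when SCI/TMX- replicates 1 and 2 were left out. Leaving out 1 array at a time gave 0 to 1 members past the methods' thresholds after SCI with TMX (Gal at 1.01 without SCI/TMX+ replicate 2) and 0 to 1 for TMX in sham rats (Gal). Penk lay at the threshold: its adjusted p ranged from 0.0223 to 0.131 without TMX and from 0.00251 to 0.0981 with TMX. Npy2r after SCI with TMX passed under array weights (adjusted p = 0.0422), with only the groups compared (0.0476) and without SCI/TMX- replicate 2 or 3, Sham/TMX+ replicate 2, or SCI/TMX- replicates 1 and 2 together. In sham rats its TMX difference had an adjusted p of 0.0375 to 0.562, the lowest with array weights. The cause of these shifts was not tested. The filter on low signal left no value for Nts, Grp and Npy2r.

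With the replicate number as a block, Penk after SCI without TMX had an adjusted p of 0.041, which made 8 members called, and no other call changed. Rats of the same number did not deviate together: r ranged from -0.21 to 0.23 over 31 pairs, with 4 over 0.1, and 6 of 22 arrays were closest to their own number, so the numbers were not taken as pairs. Low signal limits Nts, Grp and Npy2r, and also receptors such as Grpr, Tacr3 and Npy5r. The 5 or 6 arrays a group limit small differences.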
